A study of Homo sapiens with 4 samples.

Results

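The nuclear-encoded genes of the mitochondrial respiratory chain were examined in H9, an established human embryonic stem cell line kept in the primed state of pluripotency. Members were the protein-coding genes of the deposited table named as subunits of complex I (NDUFA, NDUFB, NDUFC, NDUFS and NDUFV genes), complex III (UQCR genes), complex IV (COX4 to COX8 genes) and complex V (ATP5 genes), together with SDHA, SDHB, SDHC, SDHD, CYC1 and CYCS. The NDUFAF assembly factors were left out of the rule and described apart. The rule found 85 of 16174 genes and used no measured value. By complex they were 37 genes of complex I, 4 of complex II, 10 of complex III, 15 of complex IV and 18 of complex V, with cytochrome c (CYCS) as the carrier between complexes III and IV. NDUFA4 and NDUFA4L2 were counted with complex IV, where NDUFA4 is found.

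All cells carried, by piggyBac transposition, a doxycycline-inducible dCas9 fused to the KRAB repressor domain and BFP, and were selected as pools with puromycin. One arm received 4 pooled guides against the long non-coding RNA SNHG26 and the other received control guides, and both arms were given doxycycline for 2 or 3 days. Each arm and day was 1 library of amplified poly(A) cDNA read on a nanopore sequencer, so that each arm had 2 libraries that also differed in time. Nothing in the labels says that the libraries of an arm came from separate cultures, and p-values measure only the spread between these libraries.

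Complex I takes electrons from NADH and complex II takes them from succinate. Both pass them through ubiquinone to complex III, and cytochrome c carries them on to complex IV, which reduces oxygen. The protons moved across the inner membrane drive complex V, the ATP synthase. Except for complex II, each complex joins subunits read from the nuclear genome with core subunits read from mitochondrial DNA, and primed human pluripotent stem cells are known to rely more on glycolysis than their differentiated progeny.

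Values are TPM as deposited, a read number divided by a gene's length and scaled to a common sum in each library. The length was the genomic span with introns, so levels are compared between genes per span and not per mRNA length. Over a span of 10 kb, a single read amounted to 0.653 to 0.803 TPM, and the libraries held at most 947338 to 1220265 reads on listed genes. SNHG26 was listed at 0 TPM on day 2 and 0.933 TPM on day 3 in the SNHG26 guide libraries, against 2.98 and 4.03 TPM in the control libraries. Its log2 change was −1.69 (SE 0.58), with a limma adjusted p of 0.935. Of 12 markers of primed pluripotent cells, 11 were listed and 10 had a mean of at least 1 TPM, with a summed level of 1670 to 1910 TPM. ZIC2 was listed at 0 throughout. With SNHG26 guides 1 of them was higher on both days, SALL4, at 12.8 and 14.2 TPM against 9.13 and 9.18 TPM. On both days 4 were lower, among them DPPA4, at 210 and 183 TPM against 315 and 266 TPM. POU5F1 was lower on day 2 and higher on day 3, at 1050 and 1210 TPM against 1070 and 1180 TPM. Over all 8274 genes tested between the arms, 24.8% were higher and 21.8% lower on both days. Of the naive markers, DPPA5 (6.01 and 10.8 TPM against 0 and 5.53 TPM) and SUSD2 were listed. None of the 3 listed mesendoderm or 2 listed amnion markers reached a mean of 1 TPM, and no neuroectoderm marker was among the genes analysed. Of the fibroblast markers, COL1A1 and COL1A2 were listed, summing to 7.95 and 7.99 TPM against 10.7 and 11.9 TPM. The part of other cell types in the results was not tested. Of the muscle markers, ACTC1 was listed at 56.4 and 75.6 TPM on day 2 and at 19.7 and 15.3 TPM on day 3, in the SNHG26 guide and control libraries respectively. TNNT2, also listed, had 1.17 and 0.43 TPM on day 2 and 0.35 and 1.08 TPM on day 3, in the same order.

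The promoters of these genes are known to share binding motifs of NRF1, YY1, ETS factors such as GABP, and SP1, and these motifs were searched in the 68 members with a RefSeq window (GRCh38.p14, from 250 bases before to 50 after the start). They were read on both strands as GCGCA, any base and GCGC for NRF1, AAGATGGCG for YY1, CCGGAAG for ETS factors and GGGCGGG for SP1. The NRF1 letters were found in 16 of 68 member promoters (23.5%), in 6.28% of 27305 RefSeq promoters and in 14.3% of the 839 promoters of genes whose mean reached 50 TPM. The YY1 letters were found in 8 members (11.8%), against 1.85% of all promoters and 5.48% of those of the genes at 50 TPM or more. The ETS letters stood in 20 members (29.4%), beside 10.7% and 27.8%. The SP1 letters stood in 19 members (27.9%), beside 32.9% and 49.1%. In all, 47 of the 68 held at least 1 of the 4 motifs. That share was not computed over other promoters, so this count has no comparison.

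SDHA, the flavoprotein subunit of succinate dehydrogenase, held 4 NRF1 matches, which began 166, 117, 68 and 19 bases before the start and were each 49 bases apart. Its window at chr5:218070-218319 (plus strand), which ends at the base before the start, is shown because the same decamer, in capitals, recurs in it:

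SDHA: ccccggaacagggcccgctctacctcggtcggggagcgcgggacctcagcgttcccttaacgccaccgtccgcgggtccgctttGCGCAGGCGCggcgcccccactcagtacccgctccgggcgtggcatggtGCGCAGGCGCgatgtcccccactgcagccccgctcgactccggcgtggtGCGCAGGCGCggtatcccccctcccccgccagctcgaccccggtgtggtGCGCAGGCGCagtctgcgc

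To let the NRF1 letters, in capitals, be compared between complexes, a match is shown from a member of each of complexes I, II, III and V, chosen because they hold one. They are NDUFA3 of complex I (chr19:54102772-54102801, plus strand, 73 bases before the start), SDHD of complex II (chr11:112086753-112086782, plus strand, 110 bases), UQCRC1 of complex III (chr3:48609674-48609703, minus strand, 47 bases) and ATP5ME of complex V (chr4:674431-674460, minus strand, 174 bases). ATP5PF (chr21:25735092-25735121, minus strand, 57 bases) is shown with its YY1 letters in capitals, since its level is described further on. All starts here are those of the RefSeq windows, which can differ from the ends of the listed gene spans. The stretches of NDUFA3, UQCRC1 and ATP5PF lie inside the listed spans, as do the last bases of the SDHA window.

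NDUFA3: gtgctccaggGCGCACGCGCagccctggga

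SDHD: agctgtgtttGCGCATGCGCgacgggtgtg

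UQCRC1: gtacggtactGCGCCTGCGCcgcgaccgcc

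ATP5ME: cagcctttgtGCGCGTGCGCctcacgtgac

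ATP5PF: aggcgaagaaAAGATGGCGgaggctgtgcc

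By complex, the NRF1 letters were found in 6 of 32 promoters of complex I, 2 of 3 of complex II, 4 of 7 of complex III, 0 of 11 of complex IV and 4 of 14 of complex V. Of the transcription factors themselves, NRF1 was listed at 0.151 and 0.0449 TPM in the SNHG26 guide libraries and 0.166 and 0.186 TPM in the control libraries. Its span is 145363 bases, and these values rest on at most 1.0 to 4.02 reads per library. In the same order, GABPA had 2.33, 1.39, 1.71 and 0.896 TPM and SP1 had 0.201, 0, 0 and 4.95 TPM. ESRRA was listed at 0 in all 4, and YY1 is described further on.

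The 85 members summed to 26611 and 28714 TPM in the SNHG26 guide libraries of day 2 and day 3, and to 25813 and 25908 TPM in the control libraries. This was 2.69% to 3.01% of the listed TPM, and 3.62% to 3.69% of the TPM of nuclear genes. Of the members, 57 had a mean of at least 50 TPM, 79 had at least 5 TPM and 80 had a value in every library. Complex V held the largest sum (9470 to 10834 TPM), followed by complex IV (7414 to 8332 TPM), complex I (5312 to 5936 TPM), complex III (2746 to 3396 TPM) and complex II (93.8 to 117 TPM). These ranges do not overlap between neighbouring complexes in that order.

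**Figure D1:**
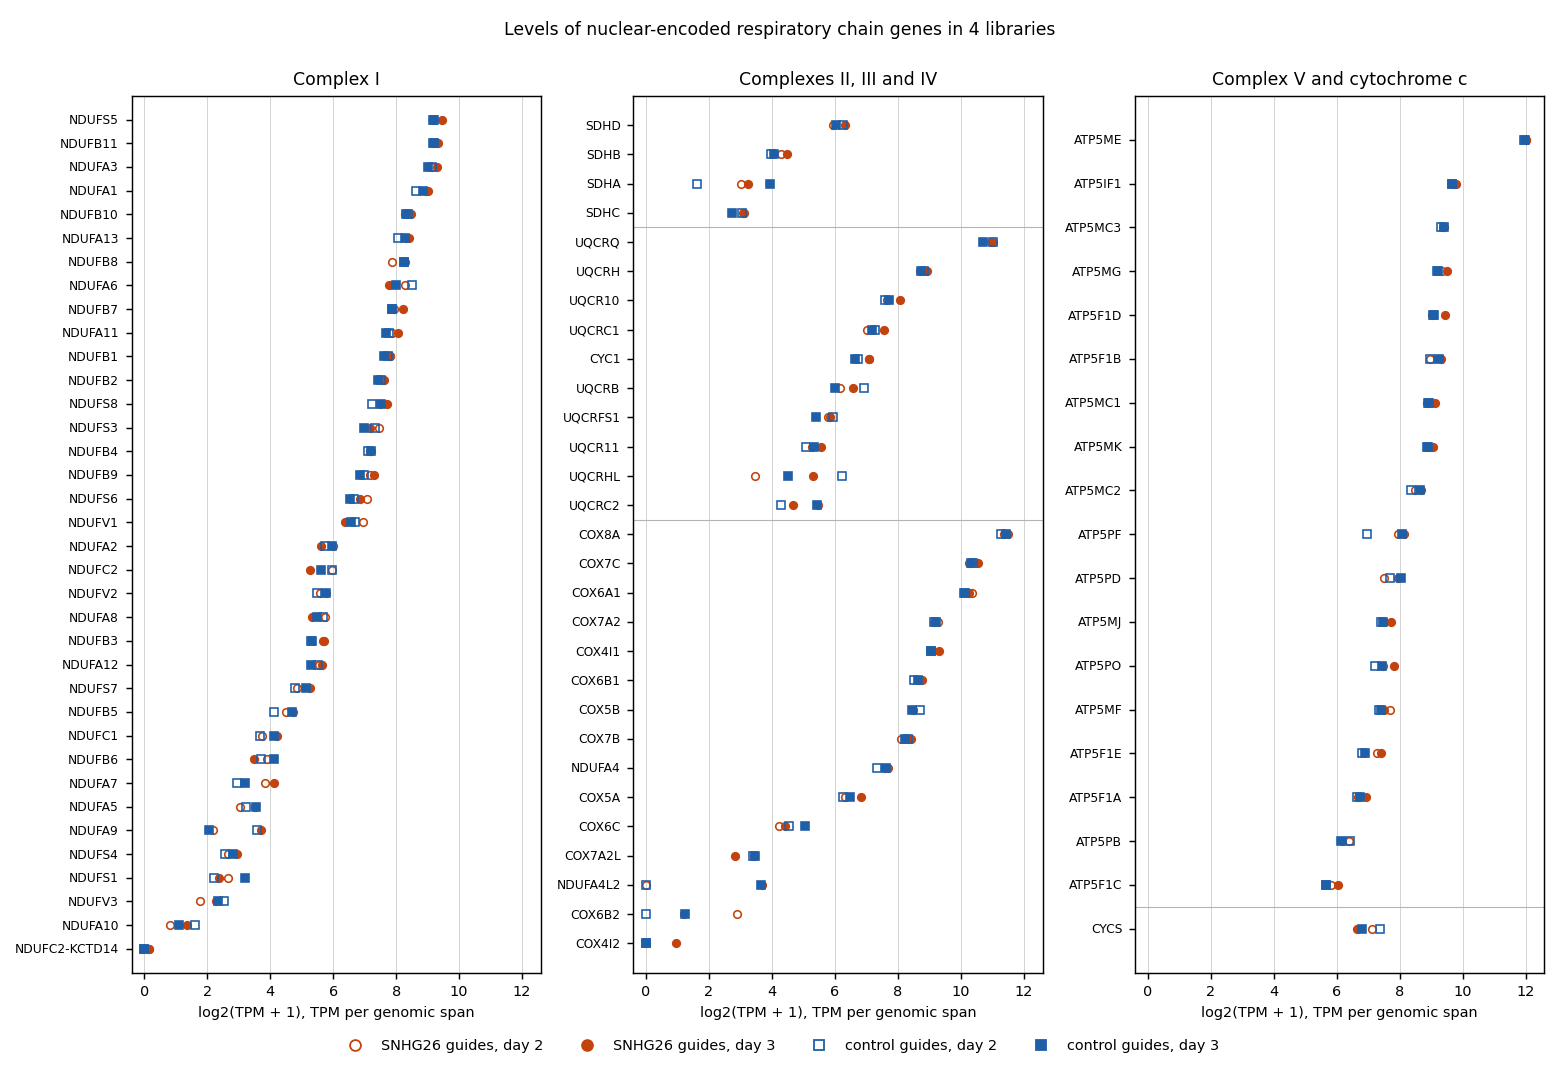
Level of each member described here as log2(TPM + 1), grouped by complex and ordered by mean, with circles for SNHG26 guides, squares for control guides, open symbols for day 2 and filled symbols for day 3. The symbols of high members such as ATP5ME, with a mean of 4070 TPM, lie on each other, and those of low members such as SDHA and UQCRHL lie apart.

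ATP5ME, subunit e in the membrane part of the ATP synthase, had the highest level of all members, at 4144 and 4165 TPM with SNHG26 guides and 3973 and 4009 TPM with control guides. It was also the steadiest, with a log2 range of 0.07 over the 4 libraries. COX8A, a small structural subunit of complex IV, was listed at 2649, 2923, 2492 and 2747 TPM, in the same order of libraries (SNHG26 guides on day 2 and day 3, then control guides on day 2 and day 3), which is kept for all values given as 4 below. UQCRQ, a small subunit of complex III, was listed at 1991, 2058, 2069 and 1653 TPM. These genes, with COX7C and COX6A1, were the 5 members above 1000 TPM and held 42% of the members' TPM. Their spans were at most 3035 bases, while the median span of the members was 12063 bases. Across the 85 members, mean TPM was lower at longer span (Spearman's rho −0.58, across genes, which are not independent replicates and share the 4 libraries). The rho of upper-bound reads with span was −0.12.

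In complex I the highest member was NDUFS5, an accessory subunit, at 576, 700, 569 and 586 TPM. The 7 core subunits, which hold the flavin and the iron-sulfur clusters, reached a mean of 179 TPM in NDUFS8, with 180, 207, 148 and 181 TPM, while NDUFS1 was listed at 5.36, 4.22, 3.65 and 8.12 TPM. In complex III, UQCRC1 and UQCRC2, the large core proteins, stood at 129, 188, 154 and 145 TPM and at 43.6, 24.5, 18.6 and 42.5 TPM. The Rieske iron-sulfur protein UQCRFS1 had 54.0, 56.7, 60.5 and 41.2 TPM, which came out as 58, 68, 59 and 48 whole reads on its span. Low members varied more between libraries. The median log2 range over the 4 libraries was 0.35 for the 57 members at 50 TPM or more, 0.57 for the 22 from 5 to 50 TPM and 0.86 for the 6 below 5 TPM.

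Paralogous subunits differed widely in TPM, which is a level per span. COX4I1, the ubiquitous form of subunit 4, was listed at 549, 639, 532 and 536 TPM, while COX4I2, the form known from lung and other oxygen-sensing tissue, had 0, 0.921, 0 and 0 TPM, which is 1 read in 1 library. COX6B1 had 408, 430, 368 and 401 TPM, and COX6B2, known from testis, had 6.49, 1.30, 0 and 1.34 TPM on at most 4.82 reads per library. COX7A2 had 619, 568, 565 and 590 TPM and COX7A2L, which is involved in joining complexes III and IV, had 9.80, 6.04, 9.60 and 10.0 TPM. Their spans were 12649 and 91543 bases, with at most 1070, 1100, 890 and 1110 reads against 123, 84.7, 109 and 136. UQCRH, the hinge protein of complex III, had 415, 485, 450 and 429 TPM, and its near-identical intronless copy UQCRHL had 10.0, 38.6, 73.3 and 21.6 TPM on at most 3.00 to 19.9 reads. Reads of that copy cannot be told apart with certainty from those of UQCRH. COX6A1 and COX7B, the other members of such families, were listed at 1303, 1222, 1111 and 1106 TPM and at 276, 342, 320 and 302 TPM. Their tissue-restricted partners COX6A2 and COX7B2, like COX7A1 and COX8C, were not analysed here.

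ATP5MC1, ATP5MC2 and ATP5MC3 encode the same mature c subunit, whose ring turns with the proton flow. Per span, ATP5MC3 was the highest of them in every library, with 677, 659, 643 and 677 TPM. It made up 45.1%, 40.6%, 44.1% and 43.5% of their summed TPM, ATP5MC1 made up 31%, 34.3%, 33.4% and 30.5%, and ATP5MC2 made up 23.9%, 25.1%, 22.5% and 26%. The order of the 3 genes by TPM was the same in all 4 libraries, and it was not the order by upper-bound reads. Their order by actual reads is not known. ATP5MC2, with a span of 44683 bases, had at most 2200, 2790, 1820 and 2690 reads. ATP5MC3 (5453 bases) had at most 507, 550, 436 and 549 reads, and ATP5MC1 (3107 bases) at most 199, 265, 188 and 220.

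The comparison of guide arms asked whether repression of SNHG26 was accompanied by a change in these genes. No member passed it. On log2(TPM + 1), with 83 members and 8274 genes in all at a mean of at least 1 TPM, limma called 0 members and 0 genes (0%) at a Benjamini-Hochberg adjusted p under 0.05. At an unadjusted p under 0.05 it found 1 member, NDUFA7, and 337 genes (4.07%). The smallest adjusted p among members was 0.935 by limma, and with day as a block 0.908.

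Most members nevertheless lay slightly higher with the SNHG26 guides. Of the 83 tested, 42 were higher on both days (50.6%), where 24.8% of all genes tested were, and 7 were lower on both days (8.43%), where 21.8% of all genes were. In 25 members both SNHG26 guide libraries were above both control libraries (30.1%, all genes 16.1%), and in 2, COX6C and NDUFV3, both were below (2.41%, all genes 13.2%). Highly expressed genes lay higher in general. Among genes whose mean reached 50 TPM, 32 of 57 members (56.1%) and 41.1% of all genes were higher on both days, and 4 members (7.02%) and 15.8% of all genes were lower. At that level the arms did not overlap in 20 members that were higher (35.1%, all genes 25.5%) and in 0 that were lower (0%, all genes 8.03%). The differences were small, with a median log2 change of 0.12 over the members and 0.04 over all genes tested, and of 0.12 and 0.11 at 50 TPM or more. The median of the members was 0.05 without the SNHG26 guide library of day 3, 0.19 without that of day 2, and 0.08 and 0.16 without the control libraries of day 2 and day 3.

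The share of the mitochondrial chromosome moved with this result. Its genes held 23.2% and 18.5% of the TPM with SNHG26 guides and 25.7% and 25.9% with control guides, and TPM have a fixed sum. With the genes of that chromosome removed and the rest rescaled, 24 of 83 members were higher on both days (28.9%) and 13 were lower (15.7%), while 20% of all genes were higher and 25.7% were lower. At 50 TPM or more, 31.6% of the members and 26.3% of the genes were then higher on both days. The median log2 change of the members was 0.03 after this rescaling, 0.08 after median ratio scaling and 0.06 after quantile normalization. Over all genes tested it was −0.03, 0.01 and 0.02. The members thus lay 0.07, 0.07 and 0.04 above all genes, beside 0.08 with TPM as deposited.

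**Figure D2:**
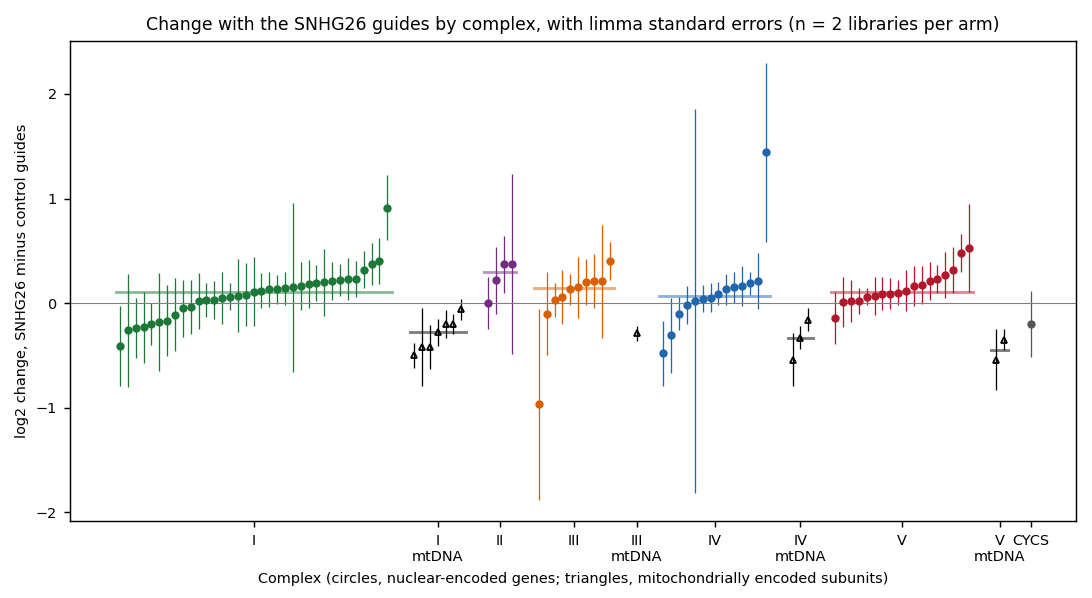
Log2 change with SNHG26 guides of the tested members (circles) and of each of the 13 mitochondrially encoded subunits (triangles, mtDNA), by complex, with limma standard errors as vertical bars and medians as horizontal bars. The medians of complexes I to V lie just above 0, from 0.07 to 0.29, most standard errors of members reach 0, and all 13 triangles lie below 0.

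By complex, the median log2 change was 0.11 in complex I, 0.29 in complex II, 0.14 in complex III, 0.07 in complex IV and 0.11 in complex V. Of all genes tested, 24.8% were higher on both days and 21.8% were lower, and at 50 TPM or more 41.1% and 15.8% were. In complex I, 20 of 36 tested members were higher on both days and 4 were lower. The 7 core subunits had a median of 0.08, with 3 higher on both days, and the 29 accessory subunits had a median of 0.12, with 17 higher on both days. In complex III, 3 of 10 were higher on both days, and the median was −0.09 on day 2 and 0.36 on day 3. In complex IV, 6 of 14 were higher on both days and 1 was lower. In complex V, where all 18 had a mean of at least 50 TPM, 11 were higher on both days and 1 was lower. The lower one was ATP5PD of the peripheral stalk, with 180, 247, 206 and 263 TPM.

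NDUFA7, an accessory subunit of complex I at chr19:8308768-8321375 (minus strand, GRCh38), was listed at 13.3 and 16.3 TPM with SNHG26 guides and at 6.69 and 8.13 TPM with control guides. The arms did not overlap, with means of 14.8 ± 2.14 and 7.41 ± 1.02 TPM (SD, n = 2 each), a ratio of 2.00. Its log2 change was 0.91 (SE 0.31), at 0.89 on day 2 and 0.92 on day 3, with an unadjusted p of 0.0398 and an adjusted p of 0.935 by limma. These values rest on at most 10.5 to 31.5 reads per library. The gene overlaps RPS28 on the opposite strand by 218 bases, and whether reads were counted by strand is not given in the sources used here. RPS28 was listed at 38.9, 67.1, 77.1 and 48.3 TPM. Its part in the NDUFA7 values was not tested.

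Among members higher on both days, the next largest differences were in complex V, those of ATP5PF and ATP5F1E. ATP5F1E, the epsilon subunit in the central stalk of the ATP synthase, was listed at 154 and 170 TPM against 112 and 119 TPM, with means of 162 ± 11.5 and 116 ± 5.38 TPM (SD, n = 2 each). Its log2 change was 0.48 (SE 0.18; limma adjusted p = 0.935). ATP5F1C, the gamma subunit that turns inside the catalytic head, was listed at 56.2 and 65.0 TPM against 50.1 and 49.6 TPM (log2 change 0.27), and the 3 central stalk genes had a median of 0.27. ATP5F1A and ATP5F1B, the subunits of the catalytic head, had log2 changes of 0.12 and 0.02. CYC1, the haem-bearing cytochrome c1 of complex III, was listed at 134 and 136 TPM against 105 and 99.7 TPM, with no overlap between arms (log2 change 0.40, SE 0.18; limma adjusted p = 0.935). It and SDHB, SDHC, NDUFB3, NDUFS6, NDUFB9 and ATP5PO were among the 25 members whose arms did not overlap.

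ATP5PF, coupling factor 6 in the peripheral stalk, had a mean log2 change of 0.53 (SE 0.42) that came from 1 library. It was listed at 245, 282, 124 and 267 TPM, and the control library of day 2 was the low one. On day 2 its log2 change was 0.97, on day 3 it was 0.08, and it was −0.02 without the control library of day 2. The gene overlaps GABPA by 1104 bases on the opposite strand, and GABPA was listed at 2.33, 1.39, 1.71 and 0.896 TPM. The part of the overlap was not tested.

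Of the members lower on both days, COX6C, a small subunit of complex IV, had the largest change, at 17.9 and 20.2 TPM against 22.5 and 32.1 TPM (log2 change −0.48, SE 0.31; limma adjusted p = 0.935). Without the control library of day 3 the value was −0.23, and without that of day 2 it was −0.72. NDUFV3, a complex I accessory subunit, was listed at 2.45 and 3.82 TPM against 4.83 and 4.05 TPM. CYCS, cytochrome c, was listed at 138 and 98.7 TPM against 164 and 110 TPM (log2 change −0.20, SE 0.32), and NDUFA6 of complex I at 308 and 217 TPM against 363 and 256 TPM (−0.24). For both, the spread between days within an arm was larger than the difference between arms. ATP5PD, NDUFA5 and NDUFC2 were the remaining 3.

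Complex II, whose 4 subunits are all nuclear-encoded, showed no separation as a whole. SDHA was listed at 7.17, 8.54, 2.06 and 14.3 TPM, so that its control libraries lay on both sides of the SNHG26 guide libraries (log2 change 0.37, SE 0.86, and −0.80 without the control library of day 2). SDHB, the iron-sulfur subunit, had 18.4 and 21.5 TPM against 14.6 and 15.8 TPM (0.37, SE 0.27). The membrane anchors differed from each other. SDHC had 7.76 and 7.49 TPM against 7.24 and 5.64 TPM, and SDHD had 60.5 and 79.8 TPM against 75.0 and 64.0 TPM, with log2 changes of 0.22 (SE 0.32) and 0.00 (SE 0.25). The control library of day 2 was the lowest of the 4 for SDHA and SDHB, and not for SDHC or SDHD.

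**Figure D3:**
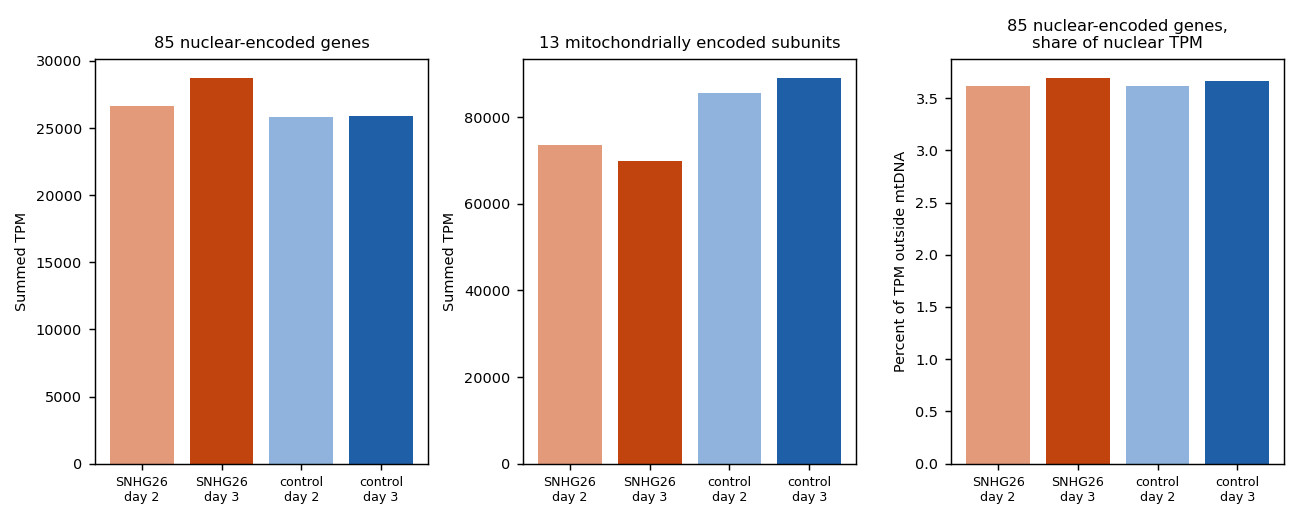
Summed TPM of the 85 members (left), summed TPM of the 13 mitochondrially encoded subunits (middle) and the share of the members in the TPM of nuclear genes in percent (right), with 1 bar for each library. The members sum highest in the SNHG26 guide library of day 3 (28714 TPM), the mitochondrial sums are lower with SNHG26 guides (73556 and 69894 TPM) than with control guides (85652 and 89017 TPM), and the share is level, from 3.62% to 3.69%.

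The 13 subunits read from mitochondrial DNA, the direct partners of these proteins, lay on the other side of 0. Their median log2 change was −0.33, with −0.22 on day 2 and −0.42 on day 3. On both days 12 of 13 were lower (all genes tested 21.8%, genes at 50 TPM or more 15.8%). In 10 of 13 both SNHG26 guide libraries were below both control libraries (all genes tested 13.2%, genes at 50 TPM or more 8.03%). None passed the test, with a smallest limma adjusted p of 0.852. An unadjusted limma p under 0.05 was found for 4 (all genes tested 4.07%): MT-CYB, MT-ND4, MT-ATP6 and MT-CO3. MT-CYB, the cytochrome b of complex III, had a log2 change of −0.29 (SE 0.07) and MT-ND4, of the proton-pumping arm of complex I, one of −0.50 (SE 0.12). After median ratio scaling 12 of 13 were lower on both days (all genes 23.4%), and after rescaling to the nuclear total 13 were (all genes 25.7%). The 13 genes share the 4 libraries and are not independent replicates.

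The summed TPM of nuclear-encoded subunits over that of their mitochondrially encoded partners was higher with SNHG26 guides in every complex that has both. In complex I the ratio was 0.206 and 0.269 against 0.175 and 0.175. In complex III it was 0.599 and 0.653 against 0.508 and 0.441, in complex IV 0.229 and 0.241 against 0.192 and 0.184, and in complex V 1.31 and 1.35 against 0.966 and 0.93. Over all complexes the day 2 log2 change of the sum was 0.04 for nuclear and −0.22 for mitochondrial subunits, and 0.15 and −0.35 on day 3. A ratio of sums within a library does not depend on the scaling, but it was not tested here, and a two-sided exact permutation test of 2 against 2 libraries cannot go below p = 0.333. In bulk RNA, fewer cells of a type and less RNA per cell cannot be told apart.

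Of the genes that build the complexes, 56 of 63 listed assembly factors were tested. None passed, 19 of the 56 were higher on both days (all genes tested 24.8%) and 11 were lower (all genes 21.8%), and the median log2 change was 0.06. TMEM186, an assembly factor of complex I, was listed at 8.89 and 13.3 TPM against 3.27 and 5.46 TPM (log2 change 1.18, SE 0.41; limma adjusted p = 0.935). FOXRED1, of the same pathway, had 11.4 and 14.7 TPM against 4.48 and 12.2 TPM (0.71, and 0.08 without the control library of day 2). In the other direction, SURF1, needed for haem insertion into complex IV, had 3.11 and 5.55 TPM against 8.56 and 20.4 TPM (−1.46, SE 0.55; limma adjusted p = 0.935). NDUFAF3 had 23.3 and 34.6 TPM against 34.1 and 59.8 TPM (−0.65). Without the control library of day 3 these values were −0.88 and −0.25.

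Of 20 listed regulators of respiratory chain genes, 15 were tested and none passed, with 6 of the 15 higher and 3 lower on both days, beside the same 24.8% and 21.8% of all genes. MYC was listed at 15.6 and 17.7 TPM against 10.5 and 10.7 TPM (log2 change 0.60) and YY1 at 13.9 and 10.7 TPM against 9.87 and 5.94 TPM (0.60, and 0.28 without the control library of day 3). HIF1A was listed at 5.02 and 4.84 TPM against 22.8 and 5.51 TPM (−1.07, and −0.14 without the control library of day 2, which stood apart). TFAM, which packages and transcribes mitochondrial DNA, was listed at 4.22 and 5.67 TPM against 6.40 and 3.40 TPM, with no order between arms.

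The comparison of day 3 with day 2 over both arms called 3 of 8274 genes (0.0363%) by limma, and none was a member. At an unadjusted p under 0.05 it found 4 members (4.82%) and 6.61% of all genes. With the guide arm as a block, 0 genes were called. Of the 83 members, 38 were higher on day 3 in both arms (45.8%, all genes 24.3%) and 11 were lower (13.3%, all genes 24.8%). Both day 3 libraries were above both day 2 libraries in 24 members (28.9%, all genes 17.1%) and below them in 7 (8.43%, all genes 18.4%). At 50 TPM or more, 42.1% of the members and 31.6% of all genes were higher in both arms, and 15.8% and 25.3% were lower. At that level both day 3 libraries were above both day 2 libraries in 24.6% of the members (all genes 22.1%). They were below them in 10.5% (all genes 18.9%). The members' median log2 change with time was 0.18 with SNHG26 guides and 0.04 with control guides (all genes 0.00 and −0.02). At 50 TPM or more the medians were 0.15 and −0.01 (all genes 0.12 and −0.06). Complex V held 12 of the 38 members higher in both arms, and 1 of its 18 members, ATP5PB, was lower.

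ATP5F1B, the catalytic beta subunit of the ATP synthase, was listed at 495 and 498 TPM on day 2 and at 631 and 609 TPM on day 3, with the SNHG26 guide library first. The log2 change with time was 0.32 (SE 0.11; unadjusted p = 0.0461, adjusted p = 0.737 by limma). CYCS went the other way, from 138 and 164 TPM to 98.7 and 110 TPM (−0.53, SE 0.18; limma adjusted p = 0.737). NDUFA6 did as well, from 308 and 363 TPM to 217 and 256 TPM (−0.50, SE 0.18; limma adjusted p = 0.737). For these 3 genes the days did not overlap, and the direction was the same in both arms.

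NDUFA4L2, a paralogue of NDUFA4 known as a target of hypoxia-inducible factor, was listed at 0 TPM in both day 2 libraries and at 11.9 and 11.5 TPM in both day 3 libraries. Its log2 change with time was 3.66 (SE 0.33; unadjusted p = 0.000435, adjusted p = 0.119 by limma). The day 3 values rest on at most 10.6 and 9.93 reads. Its paralogue NDUFA4 was listed at 194 and 161 TPM on day 2 and 206 and 198 TPM on day 3. NDUFA4L2 overlaps SHMT2 on the opposite strand by 33 bases, and SHMT2 was listed at 123 and 76.3 TPM on day 2 and 102 and 75.3 TPM on day 3. The part of that overlap was not tested.

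**Figure D4:**
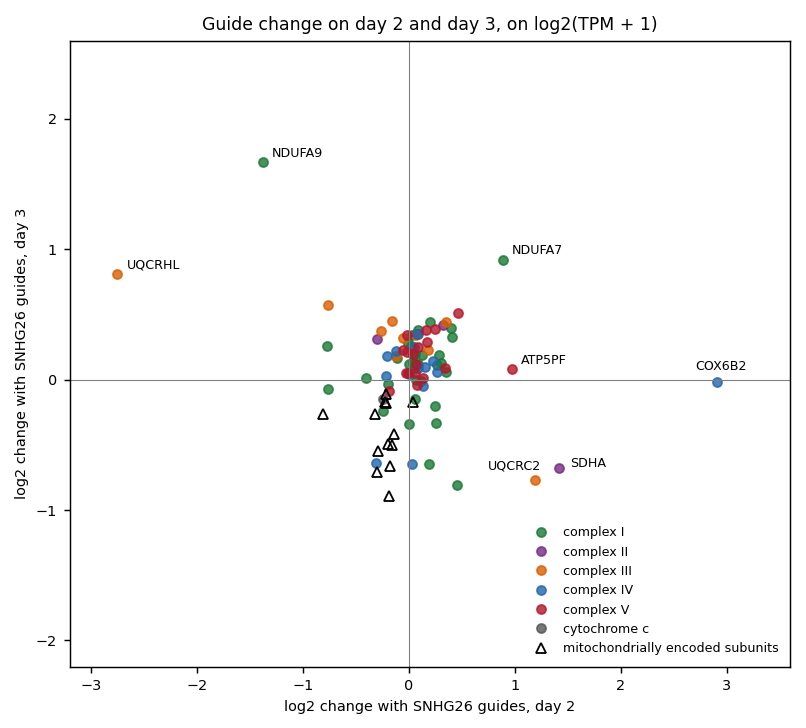
Log2 change with SNHG26 guides on day 2 (x axis) and on day 3 (y axis) for the tested members, coloured by complex, with the mitochondrially encoded subunits as open triangles. Most members cluster near 0 in the upper part, with NDUFA7 at 0.89 and 0.92, while NDUFA9 and UQCRHL lie in the quadrant of opposite signs and SDHA and UQCRC2 lie in the other.

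The guide change differed between the days in no gene (0 of 8274, 0%, by limma), and at an unadjusted p under 0.05 in 2 members (2.41%) and 2.55% of all genes. NDUFA9, an accessory subunit of complex I that binds a nucleotide cofactor, was listed at 3.56, 12.2, 10.9 and 3.13 TPM, so that the guide change was −1.38 on day 2 and 1.67 on day 3. The difference was 3.05 (SE 0.76; limma adjusted p = 0.999), on at most 21.1 to 84.3 reads per library. UQCRHL had a guide change of −2.75 on day 2 and 0.81 on day 3, a difference of 3.57 (SE 0.64; limma adjusted p = 0.999). With 1 library for each arm and day, neither pattern has a replicate, and the test takes its spread from a fit without a term for day.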

How the data were processed

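Total RNA of 4 libraries was primed with oligo-dT and amplified for 14 PCR cycles without molecular identifiers, per the labels' protocols, so reads are not independent molecules. The deposited values are TPM per gene, computed by the authors, in 1 table. The submitters' processing notes name minimap2 2.24-r1122 and GRCh38; the counting tool, its use of strand and the annotation are not given in the sources used here. The low values showed that TPM was divided by genomic span, and the commonest value of TPM times span was taken as 1 read. Reads on the full span are exact for the 6 members that came out whole in all libraries within 0.001 read and an upper bound for the rest.

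Computed here were log2(TPM + 1) for genes whose mean reached 1 TPM, and limma 3.58.1 (R 4.3.3) with a mean-variance trend and Benjamini-Hochberg adjustment over all 8274 such genes, threshold 0.05, for guides, for days and for the difference of the guide change between days. Log2 changes are on that scale and understate the change of low genes. COX4I2 and the read-through gene NDUFC2-KCTD14 fell under the filter. One member is counted in all totals but its own values are not reported or plotted here. On simulated tables at the upper-bound depths, without an effect of day, large log2 changes planted in well-covered genes were recovered. The simulated spread was a fixed setting, alike for all genes and not estimated from these libraries. Recovery at the spread of the real libraries was not tested. Changes as small as the members' median were not simulated. limma also called unchanged genes with few reads, so a call on few reads is weak. The number of a library is its day, shared by the arms. Taken from the mean of each arm, the deviations of libraries of the same day correlated at 0.0464 over 8274 genes, with only 2 pairs, and the fit with day as a block is an alternative. Alternatives were other pseudocounts, filters and scalings, eBayes without a trend, a block, and each library left out. Members in full were the highest of each complex, CYC1, CYCS, complex II, isoform families, those with an unadjusted p under 0.05, and, at a mean of at least 5 TPM, the 3 largest changes of 1 sign on both days in each direction. The remaining examples, among them core subunits, ATP5F1C, ATP5PD and NDUFV3, were chosen after their values were seen. The members, lists and rule were chosen with earlier results of these data known. Promoter windows came from RefSeq tables, first window per symbol.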

Additional observations from a re-analysis of the deposited data

How the results depend on the processing

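Members called numbered 0 in every alternative run. Genes called between the guide arms stayed at 0 under each alternative but the joint one of the replicate block and a minimum of 50 TPM, which called 14 genes and no member. With day as a replicate block alone, 0 genes were called. Between the days, 3 genes were called, 3 with a mean of at least 5 TPM or median ratio scaling, and 0 with pseudocounts of 0.1 and 5, no filter, at least 50 TPM, quantile normalization, rescaling without the mitochondrial chromosome, eBayes without a trend, the replicate block, and each library left out. The difference between days called 0 genes under the other pseudocounts, filters and scalings and without a trend; it was not run with a block or without a library. The members' median guide change of 0.12 (all genes tested 0.04) became 0.06 with quantile normalization (all genes 0.02) and 0.03 with rescaling (all genes −0.03). It lay between 0.05 and 0.19 with 1 library left out. Under other scalings the log2 guide changes of 10 of the 52 named genes turned negative. With quantile normalization they were −0.02 for ATP5F1B, ATP5MC2, ATP5MC3 and COX7A2, −0.0018 for ATP5ME, −0.001 for NDUFA4L2, −0.05 for SDHD and −0.04 for UQCRH. With median ratio scaling they were −0.02 for ATP5F1B, ATP5MC3 and NDUFA4L2, −0.00031 for COX7A2, −0.03 for SDHD and −0.0086 for UQCRH. With rescaling they were −0.07 for ATP5F1B and ATP5MC3, −0.0032 for ATP5MC1, −0.02 for ATP5MC2, −0.03 for ATP5ME, −0.05 for COX7A2, −0.00087 for COX8A, −0.04 for NDUFA4L2, −0.08 for SDHD and −0.06 for UQCRH. The cause was not tested. Without 1 library the sign depended on the library for 18 of 52 named genes, with ranges of −0.15 to 0.20 (ATP5F1B), −0.04 to 0.21 (ATP5MC1), −0.08 to 0.22 (ATP5MC2), −0.02 to 0.06 (ATP5MC3), −0.02 to 1.08 (ATP5PF), −0.02 to 0.10 (COX7A2), −0.17 to 0.13 (COX7B), −0.48 to 0.09 (CYCS), −0.15 to 0.02 (MT-ND2), −0.88 to 0.04 (MT-ND4L), −1.82 to 1.87 (NDUFA4L2), −0.49 to 0.01 (NDUFA6), −0.62 to 0.91 (NDUFA9), −0.003 to 0.28 (NDUFS5), −0.80 to 1.53 (SDHA), −0.19 to 0.20 (SDHD), −0.08 to 0.14 (UQCRH) and −0.03 to 0.29 (UQCRQ). No named gene passed the threshold under any alternative. Depth limits the low members: 51 of 85 had room for at least 100 reads in every library, counted as an upper bound.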
